A study of Mus musculus with 17 samples.

Results

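Dbp, Tef and Hlf are the 3 PAR bZIP factors, transcription factors of the leucine zipper kind that carry the daily rhythm of the clock to other genes, and Nfil3 is the repressor that binds the same DNA. All probe sets of the array that are annotated to exactly 1 of these 4 genes were taken: 2 for Dbp, 3 for Tef, 2 for Hlf and 1 for Nfil3. These 4 genes with 8 probe sets stand among 18193 genes and 45037 probe sets in all, and the main probe set of a gene is the one with the highest mean over the samples. The 4 genes were chosen on measured values, since log2 differences between the groups of these very samples were known beforehand. Their differences between groups are therefore given as a description, without p-values. Counts of members called, or with a small unadjusted p, are a description too, and nothing is read from them.

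The values came from RNA of the colon of 17 mice or pools, measured on Affymetrix expression arrays of the mouse genome and expressed on the log2 scale. Mice of the CD4cre strain carry PPAR γ flfl alleles and a Cre transgene driven by the CD4 promoter. This promoter is active in developing T cells, where Cre removes the gene of PPAR γ, a nuclear receptor. The WT mice are Cre- and, like the CD4cre mice, of C57BL/6J background. Both genotypes were sampled without dextran sodium sulfate (DSS) on day 0 and after 2 and 7 days of 2.5% DSS in the drinking water, which injures the colonic epithelium. There were 3 samples in each of the 6 groups, except for 2 from WT mice on day 7. The sources used here give neither the age of the mice nor the hour of sampling, and do not say whether an array held RNA of 1 mouse. The spread between samples may thus be technical in part, and the day of DSS and the hour at which tissue was taken cannot be told apart.

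In the mammalian clock, Bmal1 (Arntl) and Clock activate genes with E-boxes in their control regions, among them the Per and Cry repressors, the Rev-erb receptors Nr1d1 and Nr1d2, and the PAR bZIP factors. Dbp, Tef and Hlf bind a further element, the D-box, as dimers and activate the gene that carries it. Nfil3, also called E4BP4, binds D-boxes and represses, and its own gene is held down by the Rev-erb receptors through ROR elements. In liver and gut, genes of drug metabolism, transport and the clock itself are known D-box targets. Apart from the clock, Nfil3 is induced by cytokines in immune cells and is needed for the development of natural killer cells and innate lymphoid cells.

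Some sequences around the starts of these genes show where such elements lie. RefSeq promoters of build GRCm38.p6, 250 bases before a transcript start and 50 after it, were searched on both strands for the E-box CACGTG, the D-box TTANGTAA, the ROR element TAGGTCA and the cyclic AMP response element TGACGTCA. The table held promoters of all 4 genes, 5 in all. Both promoters of Tef hold an E-box, 127 and 138 bases before the start, and 7.15% of all 32851 promoters hold one. The promoter of Nfil3 has a ROR element on the other strand, 12 bases before the start, as 2.61% of promoters do. That of Hlf has a cyclic AMP response element 9 bases before the start (1.79% of promoters). That of Per3, the clock repressor whose pattern over the samples was most like that of Tef, has 2 D-boxes, 205 and 158 bases before the start (2.32% of promoters hold at least 1). No match overlapped another. The promoter of Dbp at chr7:45704997-45705296 holds none of these 4 strings, which says only that they are absent from this window. These matches are a description of the sequence and no evidence of binding. The search also covered 16 promoters of 12 other clock genes, Per3 included, namely those of the clock lists below for which promoters were held. It found 1 E-box each in Bhlhe41, Cry1 and Per1, 3 in Ciart and a ROR element in Arntl, which are not shown. These 12 are not the same set as the 12 clock genes above background that are compared below. The promoters of the 4 genes that hold a match, and that of Per3, are printed 5′ to 3′ on the strand of the gene, with the matched letters in capitals. They are shown because the comparison of activators and repressor concerns factors that act through such elements.
Tef, chr15:81802423-81802722, plus strand, E-box in capitals: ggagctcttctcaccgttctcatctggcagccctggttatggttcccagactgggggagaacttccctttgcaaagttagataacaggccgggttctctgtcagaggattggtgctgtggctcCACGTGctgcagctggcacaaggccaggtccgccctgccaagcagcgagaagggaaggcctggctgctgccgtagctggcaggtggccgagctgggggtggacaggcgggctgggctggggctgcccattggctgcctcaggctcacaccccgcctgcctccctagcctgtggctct
Tef, chr15:81811164-81811463, plus strand, E-box in capitals: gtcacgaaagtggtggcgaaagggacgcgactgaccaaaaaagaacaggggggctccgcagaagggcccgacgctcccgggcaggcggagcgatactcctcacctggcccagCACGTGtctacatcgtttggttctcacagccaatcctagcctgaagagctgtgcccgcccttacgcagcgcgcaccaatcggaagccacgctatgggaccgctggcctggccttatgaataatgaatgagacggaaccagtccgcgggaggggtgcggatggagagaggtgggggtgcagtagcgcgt
Nfil3, chr13:52980990-52981289, minus strand, ROR element (as its reverse complement) in capitals: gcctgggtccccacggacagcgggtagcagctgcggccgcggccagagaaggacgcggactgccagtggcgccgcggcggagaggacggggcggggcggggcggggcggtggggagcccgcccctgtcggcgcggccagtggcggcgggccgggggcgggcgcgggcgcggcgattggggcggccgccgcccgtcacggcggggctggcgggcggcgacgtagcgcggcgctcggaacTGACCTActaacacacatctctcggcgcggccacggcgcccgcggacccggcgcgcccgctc
Hlf, chr11:90390868-90391167, minus strand, cyclic AMP response element in capitals: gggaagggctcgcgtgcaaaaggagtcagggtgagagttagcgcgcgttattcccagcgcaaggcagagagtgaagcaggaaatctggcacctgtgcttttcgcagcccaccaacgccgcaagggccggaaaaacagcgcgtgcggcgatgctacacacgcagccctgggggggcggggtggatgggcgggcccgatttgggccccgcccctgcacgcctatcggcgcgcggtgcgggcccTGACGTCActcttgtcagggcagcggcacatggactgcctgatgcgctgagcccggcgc
Per3, chr4:151044616-151044915, minus strand, both D-boxes in capitals: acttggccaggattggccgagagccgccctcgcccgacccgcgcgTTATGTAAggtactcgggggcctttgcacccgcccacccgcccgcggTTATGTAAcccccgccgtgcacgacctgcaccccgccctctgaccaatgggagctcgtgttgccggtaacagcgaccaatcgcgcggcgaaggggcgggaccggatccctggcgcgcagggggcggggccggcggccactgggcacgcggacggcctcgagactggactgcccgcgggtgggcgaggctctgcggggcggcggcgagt

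A few facts on the samples bear on what follows. A background level of 3.39 on the log2 scale was taken, below which 95% of 57 probe sets lay whose 36 genes belong to other tissues, and 49.8% to 50.8% of probe sets exceeded it in each sample. The colon was well marked, with all 8 epithelial markers over background in every sample except for 2 CD4cre samples of day 7, which had 7. Smooth muscle markers were high in all groups (mean of 6 genes from 11.92 to 13.22), so the RNA was not of epithelium alone. Of the 5 T cell markers measured, 1 to 3 exceeded background, and Cd3e was at most 2.31 in the group means. The single Pparg probe set lay between 8.28 and 11.21 over all samples and was called in 0 of 9 comparisons, so the deletion in T cells cannot be checked in this tissue. Pancreatic enzyme transcripts were high in 3 samples, namely replicate 2 of WT day 2, replicate 1 of CD4cre day 2 and replicate 2 of CD4cre day 0. A position score from Hox genes was 1.19 to 1.66 in WT mice on day 2, above every other sample (-1.83 to 0.74).

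In CD4cre mice on day 7, the 3 activators were lower than on day 0 and the repressor was higher. Dbp was 5.0-fold lower, Hlf 3.01-fold and Tef 1.87-fold, while Nfil3 was at least 17.1-fold higher (n = 3 and 3). The last is a lower bound, since 1 of the 3 day 0 samples lay below the background level and was set to it. The WT means on day 7 were 1.09-fold (Dbp), 1.48-fold (Hlf), 1.64-fold (Tef) and 1.91-fold (Nfil3) above those on day 0. Of the 8 probe sets, 5 were called in CD4cre mice on day 7 (adjusted p under 0.05 from limma over all probe sets). Both of Dbp and both of Hlf were lower and that of Nfil3 was higher. Of all probe sets, 6.74% were called in this comparison, 3.5% higher and 3.24% lower, and since the genes were picked with it known, nothing is read from the count.

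Dbp, named for its binding to the albumin promoter, is known for a wide daily swing in many tissues. In WT mice its main probe set, 1438211_s_at, was at 10.91, 9.79 and 10.46 on day 0, at 9.90, 10.75 and 10.99 on day 2 and at 10.28 and 10.74 on day 7. In CD4cre mice it was at 10.76, 11.48 and 11.47 on day 0, at 11.99, 11.47 and 11.77 on day 2 and at 8.85, 8.63 and 9.26 on day 7. The 3 CD4cre samples of day 7 were below all other 14 samples, and the other groups overlapped with at least one of their neighbours in the order of means. That order ran from CD4cre day 2 (11.74 ± 0.26, SD, n = 3) through CD4cre day 0 (11.24 ± 0.42, n = 3) to WT day 2 (10.55 ± 0.57, n = 3), WT day 7 (10.51 ± 0.33, n = 2), WT day 0 (10.39 ± 0.56, n = 3) and CD4cre day 7 (8.92 ± 0.32, n = 3). The log2 difference between day 7 and day 0 was -2.32 in CD4cre mice (SE 0.34, 95% interval -3.07 to -1.58) and 0.12 in WT mice (SE 0.38, -0.71 to 0.96). The other probe set, 1418174_at, gave -2.52 and -0.01. Both followed each other closely over the 17 samples (r = 0.975).

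Tef, thyrotroph embryonic factor, had the highest group mean of its main probe set on day 2 in both genotypes. So did Dbp and Hlf, with smaller log2 differences from day 0 (0.16 and 0.79 in WT mice, 0.50 and 0.32 in CD4cre mice). In WT mice the main probe set, 1424175_at, was at 8.20, 7.25 and 8.13 on day 0, at 8.90, 9.27 and 9.51 on day 2 and at 8.48 and 8.67 on day 7. In CD4cre mice it was at 8.25, 8.75 and 8.77 on day 0, at 9.82, 9.65 and 9.52 on day 2 and at 7.92, 7.34 and 7.80 on day 7. Each day 2 sample was above every day 0 sample of its genotype. The CD4cre samples of day 7 were below those of day 0 but overlapped with WT day 0, the group next to them in the order of means (7.69 ± 0.30 and 7.86 ± 0.53, SD, n = 3 and 3). CD4cre day 0 and WT day 7 had means of 8.59 and 8.58 and overlapped. WT day 2 (9.23 ± 0.31) and CD4cre day 2 (9.67 ± 0.15) were next to each other without overlap, the highest of the one at 9.51 and the lowest of the other at 9.52.

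The log2 difference of Tef between day 2 and day 0 was 1.37 in WT mice (SE 0.26, 95% interval 0.81 to 1.93) and 1.07 in CD4cre mice (SE 0.26, 0.51 to 1.64). On day 7 it was 0.72 in WT mice (SE 0.29, 0.09 to 1.34) and -0.90 in CD4cre mice (SE 0.26, -1.46 to -0.34). On the array, 2 further probe sets of Tef lay close to background. They ranged from 3.45 to 6.31 (1438033_at) and from 2.81 to 4.67 (1450184_s_at). They followed the main one less closely (r = 0.71 and 0.53), and the second was above background in 13 of 17 samples. Between day 7 and day 0 of CD4cre mice they differed by -0.42 (SE 0.50) and -0.68 (SE 0.32), intervals that include 0.

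Hlf, hepatic leukemia factor, had, among the activators, the largest estimate of the difference between the genotypes on day 0. In WT mice its main probe set, 1434736_at, was at 6.29, 5.89 and 5.46 on day 0, at 6.59, 6.59 and 6.84 on day 2 and at 6.18 and 6.70 on day 7. In CD4cre mice it was at 6.63, 7.52 and 7.04 on day 0, at 7.34, 7.43 and 7.37 on day 2 and at 5.35, 5.19 and 5.88 on day 7. The CD4cre samples were above the WT samples on days 0 and 2 and below them on day 7, without overlap on any of the 3 days. The highest mean was that of CD4cre day 2 (7.38 ± 0.05, SD, n = 3) and overlapped with CD4cre day 0 (7.06 ± 0.45). The lowest, CD4cre day 7 (5.47 ± 0.37), overlapped with WT day 0 (5.88 ± 0.41), and WT day 2 (6.67 ± 0.14) and day 7 (6.44 ± 0.37, n = 2) lay between them. The log2 difference between day 7 and day 0 was -1.59 in CD4cre mice (SE 0.26, 95% interval -2.16 to -1.03) and 0.56 in WT mice (SE 0.29, -0.07 to 1.19). The weaker probe set, 1434735_at, gave -1.62 in CD4cre mice, where its mean on day 7 was 3.39, at background, and -0.07 in WT mice.

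Nfil3 was highest in CD4cre mice on day 7, lower in WT mice on day 7 and close to background in both genotypes on days 0 and 2. Its probe set, 1418932_at, was at 3.58, 4.27 and 3.39 in WT mice on day 0, at 3.69, 4.41 and 3.25 on day 2 and at 4.97 and 4.39 on day 7. In CD4cre mice it was at 3.71, 2.98 and 3.51 on day 0, at 2.87, 2.93 and 3.66 on day 2 and at 7.15, 8.75 and 7.00 on day 7. The 3 CD4cre samples of day 7 were above all other samples, and the WT samples of day 7 were above those of day 0 but overlapped with those of day 2. The mean was 7.63 ± 0.97 (SD, n = 3) in CD4cre mice and 4.68 ± 0.41 (n = 2) in WT mice on day 7. The 4 other group means, from 3.15 to 3.78, belonged to groups that overlapped. The log2 difference between day 7 and day 0 was 4.23 in CD4cre mice (SE 0.46, 95% interval 3.22 to 5.24), from a day 0 mean of 3.4 at the background level (at least 4.10 with day 0 values below background set to it), and 0.93 in WT mice (SE 0.52, -0.20 to 2.06). Without CD4cre day 7 replicate 2, the highest sample, the first of these was 3.68 (SE 0.39).

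**Figure D1:**
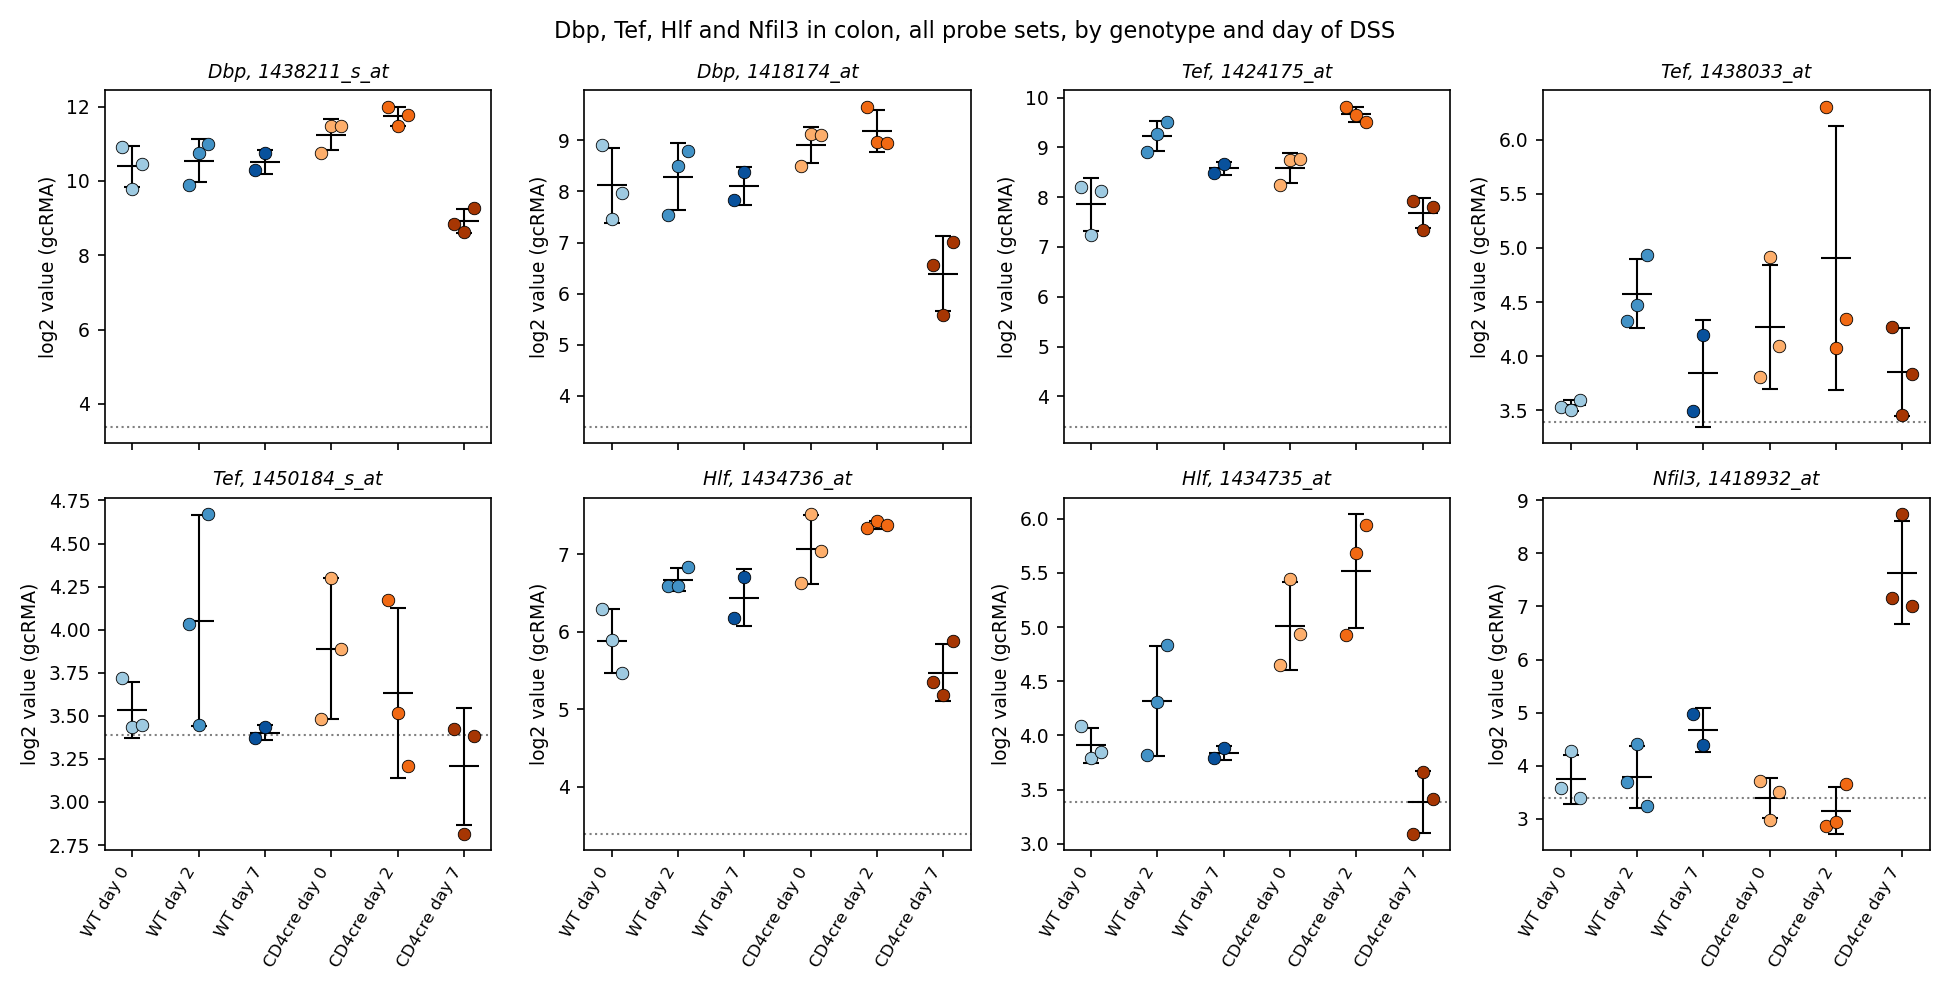
Log2 value (gcRMA, vertical axis, with a scale of its own in each panel) of the 8 probe sets of Dbp, Tef, Hlf and Nfil3 in the 6 groups. Points are samples, the long line is the group mean, bars are 1 SD and the dotted line is the background level of 3.39. In the CD4cre samples of day 7 both Dbp probe sets lie below all other samples, and Nfil3, at 7.00 to 8.75, lies above them.

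Between the genotypes, the activators were lower and Nfil3 was higher in CD4cre than in WT mice on day 7, without overlap of the main probe sets. On days 0 and 2 the estimates for the main probe sets of the activators were above 0, but no probe set was called. The weak Tef probe set 1450184_s_at was at -0.42 on day 2. The Dbp groups overlapped on day 0 and the Nfil3 groups overlapped on both days. On day 0 the log2 difference of CD4cre minus WT was 0.85 for Dbp (SE 0.34), 0.73 for Tef (SE 0.26), 1.18 for Hlf (SE 0.26) and -0.35 for Nfil3 (SE 0.46). On day 2 it was 1.20, 0.43, 0.71 and -0.63, with the same errors. On day 7 it was -1.60 for Dbp (SE 0.38, 95% interval -2.43 to -0.76), -0.89 for Tef (SE 0.29, -1.52 to -0.26), -0.97 for Hlf (SE 0.29, -1.60 to -0.34) and 2.95 for Nfil3 (SE 0.52, 1.83 to 4.08). For Nfil3 the intervals on days 0 and 2 include 0, with values close to background, as does that of Tef on day 2. With array weights the estimate for Dbp on day 0 was 0.41.

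These differences were set beside those of all probe sets. On day 7 limma called 1 of the 8 probe sets, that of Nfil3, against 1.51% of all. The groups did not overlap for 5 lower probe sets (19.6% of all) and 1 higher one (10.3%). On day 0 none of the 8 was called (0.00666% of all), 4 had an unadjusted p under 0.05, and 4 were higher without overlap (4.44% of all). On day 2 none was called either (0.0422%), 3 had an unadjusted p under 0.05, and 5 were higher without overlap (6.26%). The genes were picked with group differences known, so nothing is read from these counts.

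Against day 0, the calls were few outside CD4cre day 7, and nothing is read from the counts here either. In WT mice on day 2 the main probe set of Tef was the only one called (0.449% of all probe sets), and 3 were higher without overlap (6.59%). With the Hox position score as a covariate the difference of Tef was 2.08 and no longer called. Nor was it called with the replicate block (1.37), without the samples with pancreatic transcripts (1.35) or with only the groups compared, and with 1 sample left out it was called in 2 of 17 fits. B cell markers were higher in the same samples. Of 4 measured, limma called Ms4a1 (2.71, SE 0.43, adjusted p = 0.0287) and Cd79b (2.62, SE 0.48, adjusted p = 0.0452) higher and none lower, with a median of 1.61 against -0.02 over all probe sets. Their summed level was 184 to 238 in WT mice on day 2 and 36.8 to 50.6 on day 0, and their part in the difference of Tef was not tested. The CD4cre mice of day 2 had no call (0.0178%), 1 probe set had an unadjusted p under 0.05, and 1, that of Tef, was higher without overlap (5.23%). In WT mice on day 7 none was called (0.0866%), 1 had an unadjusted p under 0.05, 2 were higher without overlap (10.1%) and 1 was lower (35.8%). Of the CD4cre probe sets of day 7, 6 were lower without overlap (36.6% of all probe sets) and 1 was higher (8.63%).

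The contrast of the DSS effects, that in CD4cre minus that in WT mice, was larger in size on day 7 than on day 2 for each gene. On day 7 it was -2.45 for Dbp (SE 0.51, 95% interval -3.56 to -1.33), -1.62 for Tef (SE 0.39, -2.46 to -0.78), -2.15 for Hlf (SE 0.39, -3.0 to -1.31) and 3.30 for Nfil3 (SE 0.69, 1.78 to 4.82). On day 2 it was 0.35, -0.29, -0.48 and -0.29, with intervals that all include 0. Of the 8 probe sets limma called none on either day (0.14% of all probe sets on day 7 and 0.00222% on day 2). An unadjusted p under 0.05 was found for 6 on day 7 and 0 on day 2, from which nothing is read, as the genes were picked with group differences known. All these comparisons share samples: the day 0 groups serve both days of DSS, and the day 7 groups enter the genotype comparison too.

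**Figure D2:**
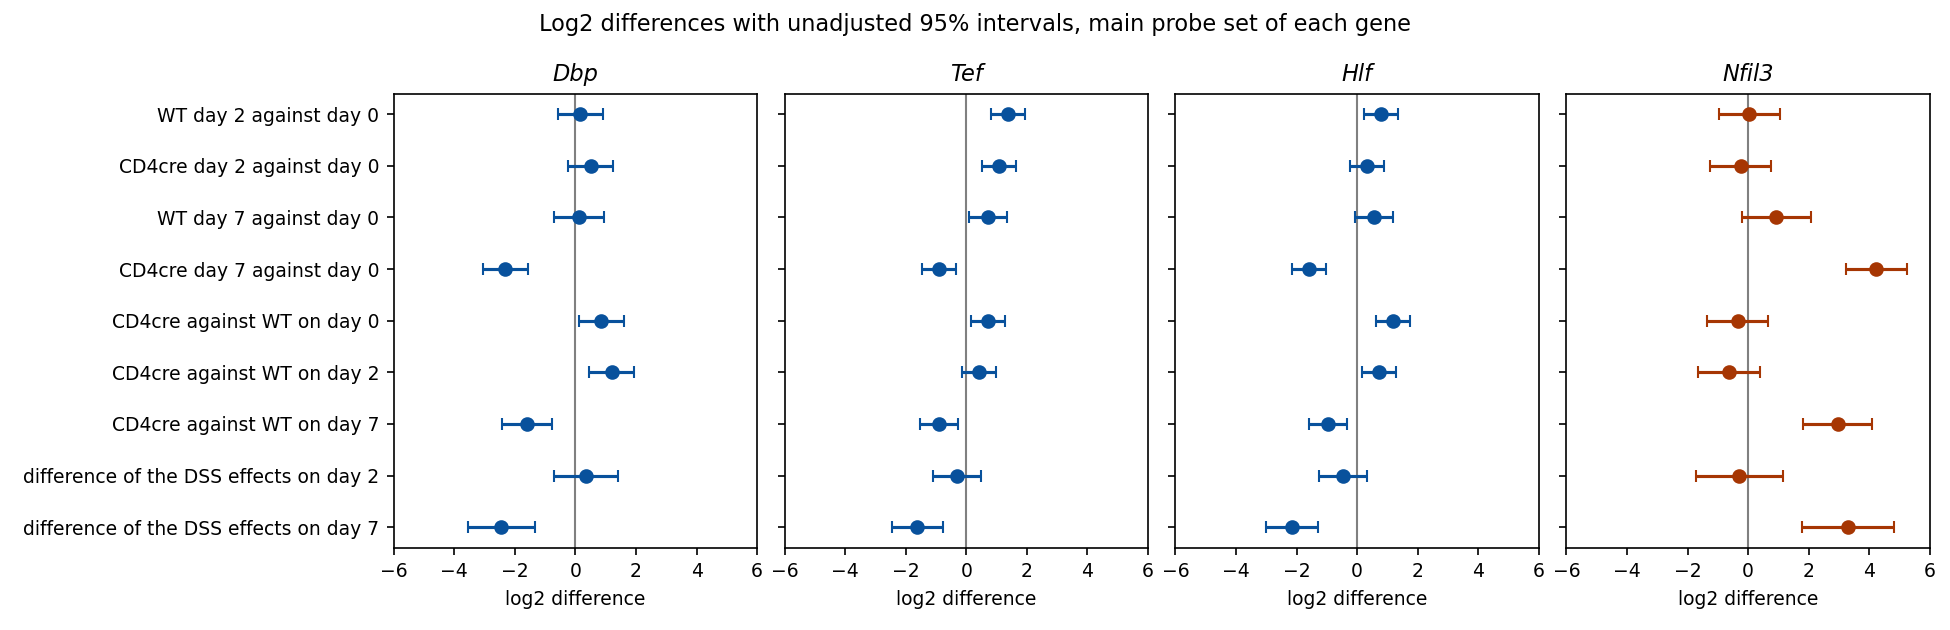
Log2 difference (horizontal axis) of the main probe set of each gene in the 9 comparisons, first group minus second, with the difference of DSS effects as CD4cre minus WT. Points are limma estimates and bars unadjusted 95% intervals. On day 7 in CD4cre mice Dbp, Tef and Hlf lie left of 0 (-2.32, -0.90 and -1.59) and Nfil3 right of it (4.23).

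To set the activators against the repressor sample by sample, each main probe set was centred on its mean over the 17 samples, and Nfil3 was subtracted from the mean of the 3 activators. This balance was -3.95, -5.86 and -3.52 in CD4cre mice on day 7. In the other CD4cre samples it was 0.67, 2.10 and 1.42 on day 0 and 2.68, 2.42 and 1.73 on day 2. In WT mice it was 0.72, -0.79 and 0.46 on day 0, 0.61, 0.29 and 1.70 on day 2 and -0.82 and 0.15 on day 7. Only the CD4cre samples of day 7 were below -0.82, and both parts of the balance took part, with the activators at -1.50 to -0.90 and Nfil3 at 2.62 to 4.36. In the other groups the activators ranged from -0.91 to 1.16 and Nfil3 from -1.51 to 0.59, the latter in WT day 7 replicate 1. On days 0 and 2 Nfil3 lay close to or below background, and these values entered the balance as measured.

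**Figure D3:**
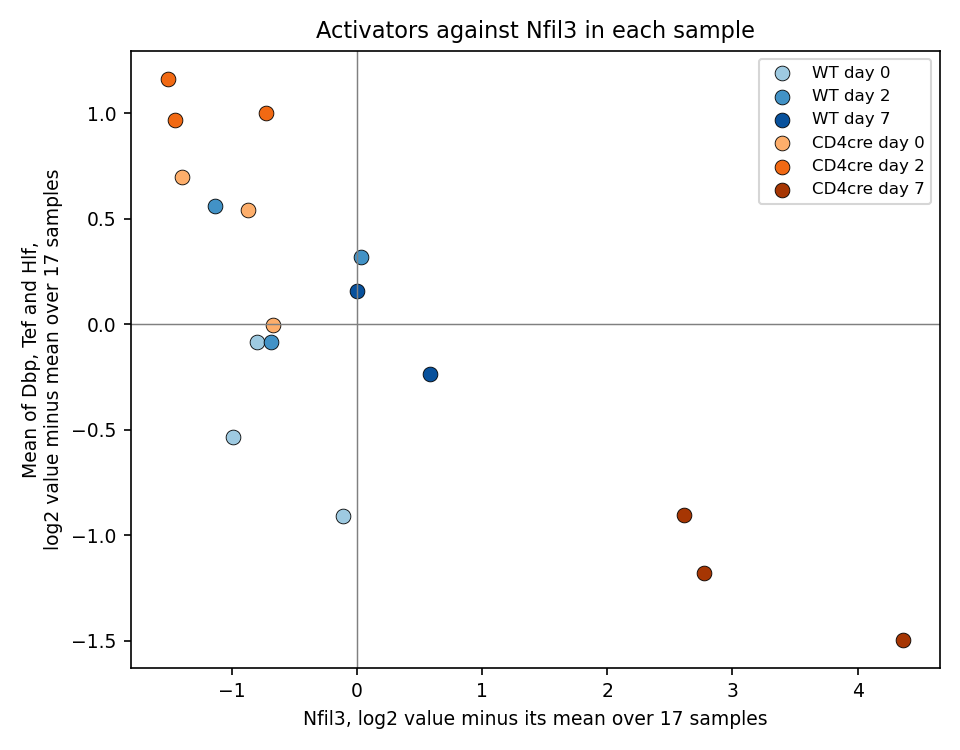
Mean of Dbp, Tef and Hlf (vertical axis) against Nfil3 (horizontal axis) in each sample, both as log2 value minus the mean over 17 samples. Points are samples, coloured by group. The 3 CD4cre samples of day 7 lie apart at the lower right, with Nfil3 at 2.62 to 4.36. Nfil3 values below background are shown as measured.

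Markers of other cells moved with the day 7 values. Of 8 monocyte and macrophage markers, all 8 were called higher in CD4cre mice on day 7 than on day 0 (median log2 difference 1.79, against -0.03 over all probe sets). Their mean was 8.75, 9.99 and 8.75 in the 3 samples, against 7.85 and 8.11 in WT mice on day 7. Between the genotypes on day 7 limma called 0 of the 8, with 6 at an unadjusted p under 0.05 (median 0.99). For the difference of DSS effects on day 7 it also called 0, with 5 at an unadjusted p under 0.05. The summed level of the 8 markers was 8608 to 19100 in CD4cre mice on day 7 and 5722 to 6355 in WT mice on day 7. In WT mice on day 2 it was 5492 to 9311, so that replicate 1 was above the lowest CD4cre sample of day 7 by this measure. By the mean of the markers the same replicate was at 8.15, below all 3 CD4cre samples of day 7. CD4cre day 7 replicate 2 had the highest mean of these markers, the highest Nfil3 (8.75) and the lowest Dbp (8.63) and Hlf (5.19) of all samples.

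Of 6 neutrophil markers measured, S100a8 and S100a9 were called higher in CD4cre mice on day 7 than on day 0. limma also called both higher than in WT mice on day 7 (4.39, adjusted p = 0.00432, and 4.86, adjusted p = 0.00234). For S100a9 it called the difference of DSS effects on day 7 as well (4.88, SE 0.74, adjusted p = 0.0318). The summed level of the list was 1273 to 7898, against 115 to 149 in WT mice on day 7 and 37.2 to 39.9 on days 0 and 2. In CD4cre mice on day 7, 3 to 4 of the 6 exceeded background, against 2 in WT mice on day 7 and 0 on days 0 and 2. The granule genes Mpo and Elane were below background in all group means. Of 4 markers measured for natural killer cells and innate lymphoid cells, cells that need Nfil3, at most 1 exceeded background in any sample. Of the 8 epithelial markers, limma called 1 lower in CD4cre mice on day 7, the stem cell marker Lgr5, by at least 2.83 against day 0 (adjusted p = 0.00766) and by at least 3.32 against WT mice on day 7 (adjusted p = 0.0221). The epithelial mean, Lgr5 included, was 11.46 in CD4cre day 7 replicate 2, the lowest of all samples. It was 12.13 and 12.11 in the other 2, against 12.33 to 12.43 on day 0. The median log2 difference of the 8 markers was only -0.02, with 4 of the 8 higher on day 7. Their summed level in CD4cre mice was 96929 to 152205 on day 7 and 117958 to 134297 on day 0, which overlap. In CD4cre mice the means of all 6 smooth muscle markers were lower on day 7 than on day 0 (median log2 difference -0.56), with 0 called by limma and 2 at an unadjusted p under 0.05. The same held in WT mice, with all 6 lower on day 7 (median -0.34), 0 called and 1 at an unadjusted p under 0.05. The part of all these cells in the values of the 4 genes was not tested. In RNA of whole tissue, fewer cells of a type and less RNA per cell cannot be told apart.

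Other clock genes were read from lists that were also made with earlier results of these samples known. Of 5 core activators, 4 were measured (Arntl, Clock, Npas2 and Rora). limma called 0 of them in all 9 comparisons, with at most 1 at an unadjusted p under 0.05 in a comparison. Arntl, the partner of Clock, was at 7.84, 8.32 and 7.88 in CD4cre mice on day 7 and at 8.08, 7.35 and 7.24 on day 0, which overlap. On day 2 in CD4cre mice it was at 6.45, 6.89 and 7.24.

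The 10 E-box driven clock genes were all measured, with 7 to 9 over background in a sample. Of them, 2 were called lower in CD4cre mice on day 7 (3.24% of all probe sets) and 0 higher (median log2 difference -0.45, against -0.03 over all probe sets). Nr1d2, the second Rev-erb receptor, fell by 0.87 (SE 0.21, adjusted p = 0.0306 from limma). It was at 11.02, 10.91 and 11.46 on day 7 and at 11.63, 12.10 and 12.26 on day 0. The repressor Per2 fell by 1.30 (SE 0.32, adjusted p = 0.0316), to 6.20, 6.01 and 5.40 from 7.61, 7.53 and 6.36. In WT mice on day 7 none was called, and 4 of the 10 had an unadjusted p under 0.05 (median 0.33).

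On day 2 the calls in this list were higher ones. In WT mice Per2 rose by 3.64 (SE 0.32, adjusted p = 0.00245) and Per3 by at least 1.98 (adjusted p = 0.035), from day 0 values that were all below background and were set to it, and in CD4cre mice Per3 rose by 2.93 (SE 0.35, adjusted p = 0.0229), from limma. No gene was called lower, and the medians were 0.76 in WT and 0.42 in CD4cre mice. On day 0, Per2 was at 5.02, 4.97 and 5.04 in WT and at 7.61, 7.53 and 6.36 in CD4cre mice, without overlap, a log2 difference of 2.16 that did not pass (SE 0.32, adjusted p = 0.127).

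**Figure D4:**
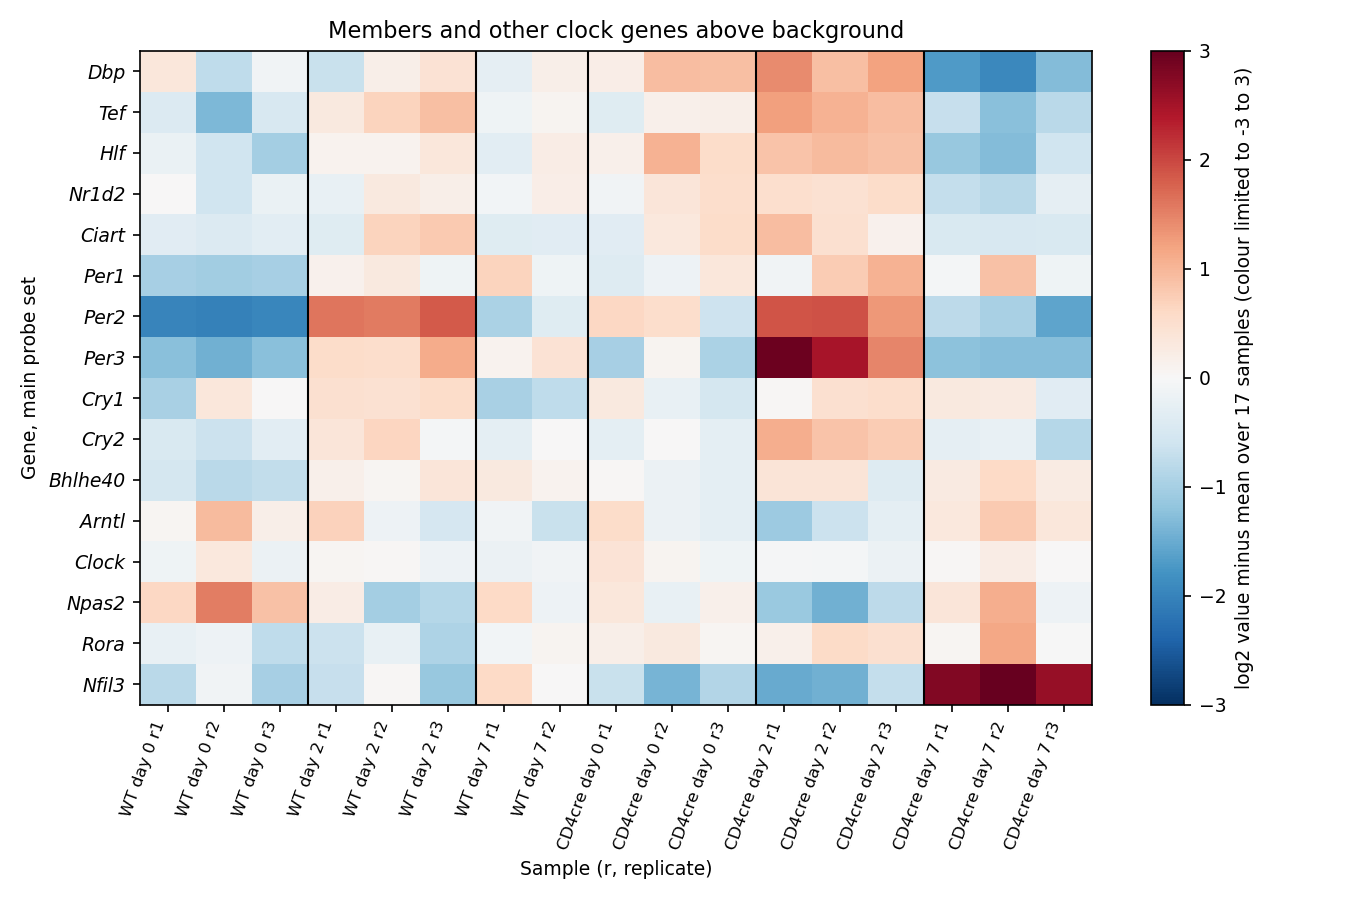
Log2 value minus the mean over 17 samples (colour, limited to the range from -3 to 3) of the 4 genes and 12 other clock genes above background, main probe set of each, in every sample. Vertical lines part the 6 groups. Nfil3 stands out in the CD4cre samples of day 7 and Per2 in the WT samples of day 0 (4.97 to 5.04).

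Genes that PAR bZIP factors or Nfil3 are known to control in liver, gut or brain formed a list of 12, of which 10 were measured. Nr1i3 and Cyp2b10 were below background in all samples, so that 8 carried a signal. On day 7 of CD4cre mice, 1 was called lower (3.24% of all probe sets) and 0 higher, with a median log2 difference of -0.49 over the 10, against -0.03 over all probe sets. Gstt1, a glutathione transferase, fell by 0.82 (SE 0.21, adjusted p = 0.0416 from limma), from 9.03 to 8.22 in the group means. In the other comparisons none was called, with 0 to 3 at an unadjusted p under 0.05. The difference of largest size was that of Slc15a1, a peptide transporter of the gut, at 3.09 in WT mice on day 2 (SE 1.39, adjusted p = 0.511). The heme synthesis enzyme Alas1 stayed between 10.03 and 10.55 in the group means.

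Glucocorticoids also follow a daily rhythm, and 8 genes that respond to them were measured. In WT mice on day 2, Tsc22d3 (1.81, SE 0.28, adjusted p = 0.0287), Ddit4 (1.39, SE 0.18, adjusted p = 0.0142) and Klf9 (0.76, SE 0.13, adjusted p = 0.0365) were called higher by limma, and none lower. On day 2 of CD4cre mice limma called 0 of the 8, and 2 had an unadjusted p under 0.05. On day 7 of CD4cre mice, Dusp1 was higher by 1.45 (SE 0.37, adjusted p = 0.0394) and Sgk1 fell by 1.25 (SE 0.30, adjusted p = 0.0316). Zbtb16 rose by 1.60 in WT mice on day 7 (SE 0.19, adjusted p = 0.0109), and its DSS effect was lower by 1.85 in CD4cre mice (SE 0.26, adjusted p = 0.0216). Its difference of CD4cre minus WT mice on day 7 was -1.73 (SE 0.19, adjusted p = 0.00218 from limma).

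Samples of one group also differ among themselves, and these differences took no part in the choice of the 4 genes. The deviations of the main probe sets from their group means were correlated over the 17 samples and tested with a permutation test within groups (two-sided, 100000 resamples). Deviations sum to 0 within a group, and those of the 2 WT samples of day 7 mirror each other. Counts of samples with the same or opposite sign are therefore not counts of independent observations. Of 6 pairs, 2 passed after Benjamini-Hochberg adjustment. Dbp and Tef deviated together (Pearson r = 0.87, permutation p = 0.0016, adjusted p = 0.0096, Spearman rho = 0.81, permutation p = 0.0038, adjusted p = 0.0228), in the same direction in 15 of 17 samples. Without the 2 samples farthest from the median of Dbp, r was 0.80. Without the 3 samples with pancreatic transcripts r was 0.86, with an adjusted p = 0.0619 by the permutation test.

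Tef and Nfil3 deviated in opposite directions (r = -0.68, permutation p = 0.0137, adjusted p = 0.0412, rho = -0.70, permutation p = 0.0121, adjusted p = 0.0363), with the same sign in 4 of 17 samples and r = -0.56 without the 2 farthest. Leaving out 1 sample ended this call in 12 of 17 cases, with r between -0.77 and -0.63. The other 4 pairs did not pass, with r = 0.59 for Dbp and Hlf (permutation p = 0.0542, adjusted p = 0.108), 0.39 for Tef and Hlf (0.281 and 0.281), -0.47 for Dbp and Nfil3 (0.0996 and 0.121) and -0.49 for Hlf and Nfil3 (0.101 and 0.121). All pairs of activators had a positive r and all pairs with Nfil3 a negative one. On days 0 and 2 the Nfil3 values behind these deviations lie near background.

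The same deviations were then set against those of 12 other clock genes above background, 48 pairs in all, an addition made after the data had been seen. Of these, 7 passed a permutation test within groups after adjustment over the 48. Tef and Arntl had r = -0.92 (permutation p = 6e-05, adjusted p = 0.00288, rho = -0.89, adjusted p = 0.00288), with opposite signs in all 17 samples and r = -0.94 without the 2 farthest. Dbp and Arntl had r = -0.90 (permutation p = 0.00141, adjusted p = 0.0135, rho = -0.85, adjusted p = 0.0162), with the same sign in 2 of 17 samples. Samples with more Dbp and Tef than the rest of their group thus had less Arntl.

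The other 5 pairs were of both signs. Dbp and Nr1d2 had r = 0.92 (adjusted p = 0.0135 by the permutation test) and Tef and Ciart, an E-box driven repressor, r = 0.60 (adjusted p = 0.00688). Npas2, which can replace Clock, had r = -0.78 with Dbp and -0.77 with Tef (adjusted p = 0.0335 for both by the permutation test; with rho, adjusted p = 0.0696 and 0.146). Nfil3 and Per3 had r = -0.56 (adjusted p = 0.00688 by the permutation test). Nfil3 lay near background on days 0 and 2. Per3 did so in WT mice on day 0 and CD4cre mice on day 7 (means 3.31 and 3.36). Ciart hardly varied in WT mice on days 0 and 7 and CD4cre mice on day 7 (SD 0.049, 0.0038 and 0.017). Hlf passed with none of the 12 genes.

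**Figure D5:**
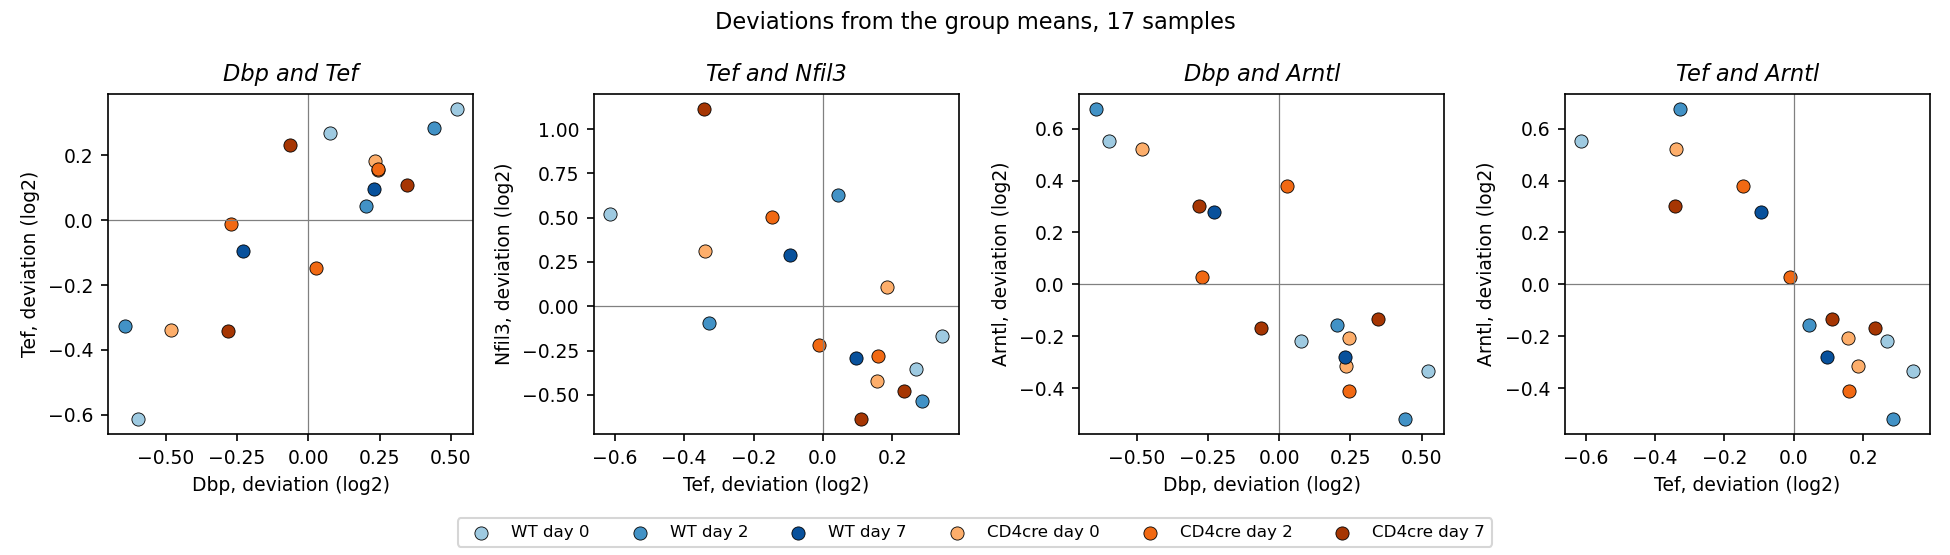
Deviation of each sample from its group mean (log2, both axes) for Dbp and Tef, Tef and Nfil3, Dbp and Arntl, and Tef and Arntl. Points are the 17 samples, coloured by group, and lines mark 0. Dbp and Tef run together (r = 0.87), and both run against Arntl (r = -0.90 and -0.92).

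Over all 17 samples, with the groups not removed, the 5 genes most like each of the 4 were taken from 11542 genes with a mean above background, by Pearson r and as a description. They share arrays, depth of signal and groups with them. For Dbp they were Nr1d2 (0.944), Pdk2 (0.924), Abca8a (0.916), Syt7 (0.911) and Tcea3 (0.897). For Tef they were Per3 (0.904), Zfp704 (0.893), Inafm1 (0.892), Pdcd4 (0.884) and Wnk4 (0.875). For Hlf they were Nr1d2 (0.909), Dhx32 (0.896), Gdpgp1 (0.896), Abca8a (0.890) and Lig3 (0.889). Nr1d2 and Abca8a, an ABC transporter, were thus on the lists of both Dbp and Hlf. For Nfil3 they were Adamts4 (0.980), Steap4 (0.973), Slc10a6 (0.972), Socs3 (0.970) and Sting1 (0.967). Socs3 is a feedback inhibitor of cytokine signalling and Adamts4 a protease of the matrix, and no clock gene was among these 5.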

How the data were processed

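Total RNA of colonic mucosa was hybridized to 17 Affymetrix arrays. The authors made log2 values with gcRMA (R 2.9.0 per the labels), a background correction, normalization and summary per probe set. Of the 45101 probe sets in the deposited log2 table, 64 controls were left out and 45037 tested unfiltered. Symbols came from the platform's annotation (34945 probe sets with 1 gene, 932 with several, 9160 with none). limma 3.58.1 (R 4.3.3) used 6 group means (11 residual and 0.888 prior degrees of freedom), two-sided, Benjamini-Hochberg adjusted within each of 9 comparisons. The number of arrays limits precision, and the SD within groups over probe sets was 0.22 to 0.51. The members and all lists were chosen with earlier results of these data known. Tests of the members on day 7 and between genotypes had been planned and are given without p-values for this reason. All probe sets of the members are reported, and of the lists those genes called or with the largest difference. The monocyte and macrophage markers called are given as a count. Replicate numbers did not pair the samples (15 of 40 correlations of deviations over 0.1, from -0.45 to 0.51). Alternatives were other scalings, filters, weights and thresholds, fewer samples and groups, the replicate block and a Hox covariate. Promoters are from RefSeq, build GRCm38.p6.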

Additional observations from a re-analysis of the deposited data

How the results depend on the processing

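For the day 7 differences in CD4cre mice, which were known when the genes were chosen, leaving out 1 sample gave -2.56 to -2.18 for Dbp, -1.81 to -1.36 for Hlf and 3.68 to 4.55 for Nfil3. Of the other settings, a fit of only the groups compared ended the calls of these 3, and leaving out the 3 samples with pancreatic transcripts ended that of Hlf. No member difference that was called changed sign in any setting.

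Counts of called member probe sets moved in some settings. In WT mice on day 2 the count was 0 in place of 1 with only the groups compared, with the replicate block, with a Hox covariate and without the pancreatic samples, and 2 with array weights. Leaving out 1 sample gave 0 to 1, and Tef stayed called only without CD4cre day 7 replicate 1 or 2. On day 7 of CD4cre mice it was 0 in place of 5 with only the groups compared and 3 without the pancreatic samples. It reached 6 in other settings and was 5 to 6 with 1 sample left out. Tef, not called in the main fit, was called in 4 of the other settings and in 1 fit with 1 sample left out. Between genotypes on day 7 the count was 2 in place of 1 with median centring, with a filter on low values and with a threshold of 0.10. It was 0 with only the groups compared and without the pancreatic samples, and 0 to 4 with 1 sample left out (0 without either WT day 7 sample, 4 without CD4cre day 7 replicate 3). For the difference of DSS effects on day 7 it was 1 in place of 0 with the filter, 2 with array weights, 3 with the threshold of 0.10, and 0 to 3 with 1 sample left out (3 without CD4cre day 7 replicate 3). Between genotypes on day 0 it was 3 in place of 0 with array weights, which gave WT day 0 replicate 1 a weight of 16.6. The replicate block, for numbers that did not pair the samples, changed no other count of the members.

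With a Hox covariate, day 2 against day 0 in WT mice was 0.94 for Dbp, 2.08 for Tef, 1.15 for Hlf and -0.87 for Nfil3, CD4cre against WT on day 2 was 0.047 for Tef, and the difference of DSS effects on day 2 was -0.26 for Dbp, -0.85 for Tef and 0.43 for Nfil3. With array weights, day 7 against day 0 in WT mice was -0.35 for Dbp and 0.18 for Hlf, CD4cre against WT on day 0 was 0.41 for Dbp, and the difference of DSS effects on day 7 was -1.98 for Dbp and -1.20 for Tef. The weaker probe sets gave other sizes. For Hlf, 1434735_at gave 0.41 (WT day 2), -0.071 (WT day 7), 1.20 and -0.45 (genotypes on days 2 and 7), 0.10 and -1.55 (difference of DSS effects on days 2 and 7). For Tef, 1438033_at gave 1.04 and 0.64 (day 2 in WT and CD4cre mice), 0.30 and -0.42 (day 7 in WT and CD4cre mice), 0.0085 (genotypes on day 7) and -0.72 (difference on day 7). For Tef, 1450184_s_at gave 0.52 and -0.26 (day 2 in WT and CD4cre mice), -0.13 (WT day 7), 0.36, -0.42 and -0.20 (genotypes on days 0, 2 and 7), and -0.77 and -0.55 (difference on days 2 and 7). The cause of these shifts was not tested.

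Within groups, r of Dbp and Tef was 0.86 without the pancreatic samples and no longer passed. With 1 sample left out, r was 0.83 to 0.92 for Dbp and Tef, 0.48 to 0.70 for Dbp and Hlf (passing without WT day 0 replicate 2 or 3), -0.60 to -0.38 for Dbp and Nfil3 (passing without WT day 2 replicate 1 or 2), -0.77 to -0.63 for Tef and Nfil3 and -0.70 to -0.38 for Hlf and Nfil3 (passing without WT day 0 replicate 3). Over all probe sets, the counts of calls ranged over the settings from 1 to 8277 in WT mice on day 2 (202), 1 to 104 in CD4cre mice on day 2 (8), 5 to 2497 in WT mice on day 7 (39) and 28 to 18002 in CD4cre mice on day 7 (3036), and between genotypes from 0 to 8408 on day 0 (3), 13 to 140 on day 2 (19) and 2 to 3081 on day 7 (681). For the difference of DSS effects they ranged from 0 to 34 on day 2 (1) and from 20 to 1725 on day 7 (63).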
